A study of Mus musculus with 20 samples.

Results

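Peaks of 4 histone modifications were examined at 3 lymphoid loci in hematopoietic stem cells (HSCs), around Ighm, around Rag1 and Rag2, and around Pax5. The loci were taken as windows of the mm9 assembly, the build named in the submitters' processing notes. The Ighm window, which was drawn to include the intronic enhancer of the heavy chain locus, spans 40 kb on chromosome 12 from 114645001 to 114685000. The Rag1-Rag2 window spans 45 kb on chromosome 2 from 101455001 to 101500000, and the Pax5 window spans 200 kb on chromosome 4 from 44530001 to 44730000. Every listed peak that shared at least 1 bp with a window was taken, which gave 87 of 218887 peaks on chromosomes 1 to 19, X and Y. Of these, 8 were in the Ighm window, 23 in the Rag1-Rag2 window and 56 in the Pax5 window. The windows were chosen by gene position with the peak lists known, and the Ighm window was selected on the width of its fetal H3K4me3 peak and the absence of an adult one. Its values are therefore a description.

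The cells came from B6129SF1 mice, either from fetal liver at embryonic day 14.5 or from bone marrow of adults aged 6 to 8 weeks. Both were sorted as lineage-negative, Sca1-positive, cKit-positive and CD135-negative, and 50000 sorted cells were used per ChIP. This gate holds multipotent progenitors beside stem cells, and CD135 (Flt3) marks progenitors with lymphoid potential, which the gate removes. H3K4me3, H3K27ac, H3K4me1, H3K27me3 and input had 2 replicates each at both stages. Each mark was deposited as 1 combined list of peaks per stage, so no replicate error can be given, no test between stages was possible, and stage cannot be told apart from library or peak calling. A listed peak does not tell apart a mark in many of the sorted cells from a mark in few of them. Marker genes of HSCs and of other blood cells were not analysed here.

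All 4 genes act in the development of lymphocytes and their antigen receptors. Ighm encodes the constant region of the IgM heavy chain, and its locus is transcribed from germline promoters near an intronic enhancer before V, D and J segments are joined. Rag1 and Rag2 encode the subunits of the recombinase that joins these segments, and both are normally expressed in lymphoid progenitors. Pax5 encodes the transcription factor that commits progenitors to the B cell lineage and is silent in stem cells. H3K4me3 marks active or poised promoters, H3K27ac marks active promoters and enhancers, H3K4me1 marks enhancers and the flanks of promoters, and H3K27me3 marks chromatin silenced by Polycomb, which in vertebrates is recruited mainly to regions rich in the dinucleotide CG.

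Promoter sequences of Rag2, Rag1 and Pax5 are shown because the loci differed in H3K27me3. The density of CG dinucleotides is a feature that the choice of loci did not use. Whether CG density bears on H3K27me3 at these loci was not tested. RefSeq promoters were found for 3 of the 4 genes; Ighm has none in the table. Each sequence holds the 250 bases before the annotated start, from the GRCm38.p6 build, 5′ to 3′ on the strand of the gene, with every CG in capitals. They lie at chr2:101624462-101624711 on the plus strand for Rag2, at chr2:101649533-101649782 on the minus strand for Rag1 and at chr4:44710695-44710944 on the minus strand for Pax5. These positions cannot be compared with the mm9 positions of the peaks, and no peak was assigned to a promoter.
Rag2: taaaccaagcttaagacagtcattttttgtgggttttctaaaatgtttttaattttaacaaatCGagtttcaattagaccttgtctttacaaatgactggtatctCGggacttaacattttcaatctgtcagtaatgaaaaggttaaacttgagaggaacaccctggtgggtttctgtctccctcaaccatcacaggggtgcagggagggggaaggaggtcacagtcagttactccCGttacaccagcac
Rag1: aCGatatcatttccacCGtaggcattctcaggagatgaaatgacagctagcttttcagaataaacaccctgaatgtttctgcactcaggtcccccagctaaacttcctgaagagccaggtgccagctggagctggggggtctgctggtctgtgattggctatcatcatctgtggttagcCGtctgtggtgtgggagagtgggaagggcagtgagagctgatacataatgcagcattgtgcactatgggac
Pax5: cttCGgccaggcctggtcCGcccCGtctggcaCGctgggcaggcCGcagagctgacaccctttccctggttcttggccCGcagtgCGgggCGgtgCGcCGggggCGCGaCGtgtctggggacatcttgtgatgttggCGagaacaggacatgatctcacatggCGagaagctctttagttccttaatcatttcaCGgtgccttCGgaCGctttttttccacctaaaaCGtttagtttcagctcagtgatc
The Rag2 and Rag1 sequences each hold 3 CG dinucleotides, and the Pax5 sequence holds 19. Over 32851 promoters of the table the median was 6. The GC content was 41.2% for Rag2, 50.8% for Rag1 and 58.8% for Pax5, against a median of 52.4%. The Rag2 and Rag1 promoters thus held fewer CG than the median, though each still held more than 29.0% of all promoters. The Pax5 promoter held more CG than 80.3% of all promoters. The letters CAGGTG, a form of the E-box CANNTG that E proteins such as E2A bind, were searched on both strands. They were found once in the Rag1 sequence and not in the other 2, and 17.2% of all promoters hold them. The wider CANNTG, which includes CAGGTG, was found 3 times in the Rag1 sequence and once in each of the other sequences, and 66.2% of all promoters hold it. The Ikaros core GGGAA and the GATA letters AGATAA were also searched. GGGAA was found once in each of the 3 sequences, and 56.2% of all promoters hold it. AGATAA was found in none of them, and 9.99% of all promoters hold it.

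The 3 windows carried different combinations of marks. The Ighm window had H3K4me3, H3K27ac and H3K4me1 in the fetal lists and no peak of any mark in the adult lists. The Rag1-Rag2 window had the same 3 marks in the fetal lists, and kept part of its H3K4me3 and H3K27ac in the adult lists. The Pax5 window was covered mainly by H3K27me3 at both stages, with H3K4me3 inside it. H3K27me3 was not listed in the Ighm or the Rag1-Rag2 window at either stage. In tiles of the same length laid over all chromosomes it was also absent from most, being present in 11.5% (fetal) and 7.31% (adult) of 40 kb tiles, in 12.4% and 7.97% of 45 kb tiles, and in 33.4% and 24.5% of 200 kb tiles.

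**Figure D1:**
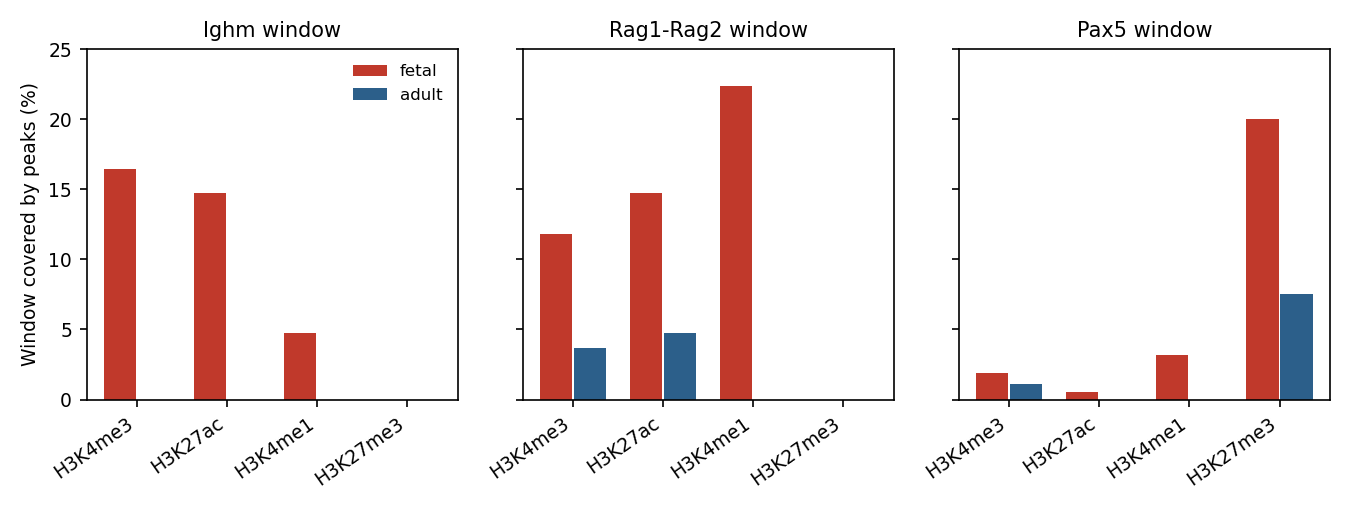
Share of each window covered by peaks of each mark, in percent of the window's length, for the fetal (red) and adult (blue) list. Fetal H3K4me3 covered 16.5% of the Ighm window, where no adult bar is present, and fetal and adult H3K27me3 covered 20.04% and 7.51% of the Pax5 window.

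The Ighm window carried 1 wide block of active marks in the fetal lists, which was not assigned to an enhancer or a promoter. The fetal H3K4me3 peak lay on chromosome 12 from 114662442 to 114669024 and was 6583 bp wide, against a list median of 1736.5 bp. It ranked 35 of 17104 fetal H3K4me3 peaks by width, and 63.8% of that list had a lower score. The score is the authors' value from their peak caller, has no stated unit, and is used here only to rank peaks within a list. The peak was therefore among the widest of its list but only above the middle of it by score.

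Fetal-only peaks, meaning peaks without an overlapping adult peak of the same mark, made up 9.02% of the fetal H3K4me3 list, or 1543 peaks, with a median width of 796 bp. The next widest fetal-only peak, which the choice of loci left out, lay on chromosome 11 from 95864405 to 95869745 and was 5341 bp wide. Among fetal-only peaks the Ighm peak ranked 2 by score. The nearest adult H3K4me3 peak was 201464 bp away.

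H3K27ac, the mark of active regulatory elements, covered most of the same block. Its wider fetal peak at Ighm ran from 114663212 to 114668401, was 5190 bp wide, and lay wholly inside the H3K4me3 peak. Of the fetal H3K27ac list 97.1% was narrower and 89.2% had a lower score. A second fetal H3K27ac peak of 713 bp, from 114661902 to 114662614, was weak, with only 1.22% of the list scoring lower. Neither overlapped an adult peak, the nearest being 237191 bp from the weak one, and 34.7% of the whole fetal H3K27ac list also had no overlapping adult peak.

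H3K4me1 at Ighm was narrow and lay toward one side. The 5 fetal peaks were 208 to 631 bp wide and lay between 114660501 and 114665221, reaching from left of the block to near its middle. The widest, from 114664591 to 114665221, also had the best score, with 75.3% of the list lower, and lay entirely within both the H3K4me3 and the H3K27ac peak. Of the 5 peaks, 4 overlapped H3K27ac, 3 overlapped H3K4me3 and 1 overlapped neither. H3K4me1 thus covered 995 bp of the 6583 bp H3K4me3 peak, and H3K27ac covered 5363 bp of it.

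**Figure D2:**
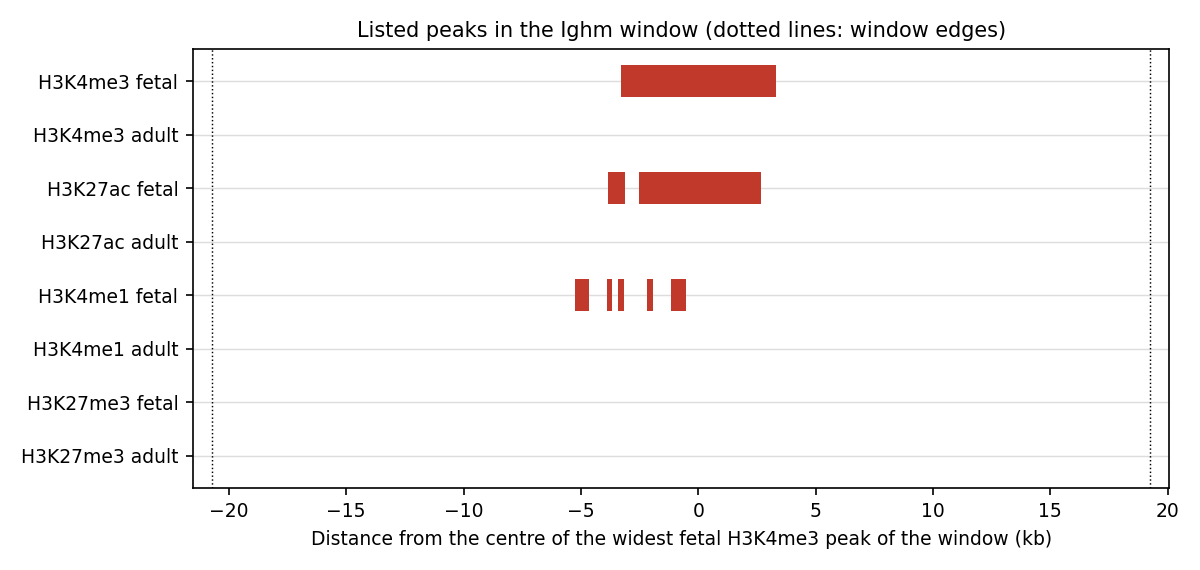
Peaks of the 8 lists in the Ighm window, by distance in kb from the centre of the fetal H3K4me3 peak; bars are peaks drawn to scale, red for fetal and blue for adult. The fetal H3K4me3 bar of 6583 bp overlies the fetal H3K27ac bars and part of the H3K4me1 bars, and every adult lane is empty.

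Beyond the Ighm window, the closest peaks were of fetal H3K4me1, at 3.82 kb to the left and 35.6 kb to the right. The nearest other fetal H3K4me3 peaks lay 184 kb to the left and 932 kb to the right of the window, and both had adult counterparts at nearly the same places, 184 kb and 932 kb away. In 40 kb tiles laid over all chromosomes, 1.25% of 65946 tiles had fetal and no adult H3K4me3, 5.2% had fetal and no adult H3K27ac, and 24.1% had fetal and no adult H3K4me1. The window was selected on the first of these states, so nothing is read from these shares.

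At Rag1 and Rag2, the fetal lists showed 2 neighbouring blocks on the left of the window and 2 weaker H3K4me3 peaks on its right. In the RefSeq order of GRCm38, Iftap overlaps Rag2, and Rag2 is followed by Rag1 and then Traf6. A peak of the window can therefore belong to Rag2, Iftap or Rag1, and none was assigned to a gene. Of the 4 fetal H3K4me3 peaks, 1 was shared with the adult list and 3 were not, against 9.02% of the whole fetal list without an adult peak. Fetal H3K4me3 covered 3641 bp more of the window than adult H3K4me3. When only peaks at or above the median score of their list were kept, the adult shared peak alone was left and the difference was -1662 bp.

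The shared H3K4me3 peak was also the strongest of the window. In the fetus it lay from 101468114 to 101469585, was 1472 bp wide and outscored 49.3% of its list. In the adult it lay from 101467934 to 101469595, was 1662 bp wide and outscored 58.6% of its list. The adult peak covered the whole fetal peak, so this element had nearly the same outline at both stages. It carried H3K27ac at both stages as well, in peaks of 1134 bp in the fetus and 1400 bp in the adult. These outscored 40.6% of the fetal and 51.4% of the adult H3K27ac list.

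The block to its left differed more between the lists. The fetal H3K27ac peak there ran from 101460301 to 101465803 and was 5503 bp wide, with 97.6% of the list narrower and 77.3% lower in score. The only adult H3K27ac peak within it, from 101464600 to 101465340, was 741 bp wide, and 3.25% of the adult list had a lower score. The fetal peak was thus 7.43 times as wide as the adult one, which covered 13.5% of it and lay near its right end. In that place the fetal list had an H3K4me3 peak of 1586 bp, from 101464541 to 101466126, and the adult list had none, the nearest adult peak being 1807 bp away. This fetal peak outscored 28.3% of its list. When the list was divided into 10 score groups of equal size (score deciles), 8.59% of the fetal peaks in the decile of this peak had no adult peak. All 741 bp of the adult H3K27ac peak lay inside it.

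The remaining fetal H3K4me3 peaks of the window were weak. They lay from 101488423 to 101489920, which is 1498 bp, and from 101492659 to 101493405, which is 747 bp. They outscored 13.4% and 6.82% of their list, and of the peaks in their score deciles 25.9% and 53.4% had no adult peak. The absence of an adult peak was therefore common for fetal peaks of such scores. Neither overlapped H3K27ac at either stage, and each overlapped a fetal H3K4me1 peak.

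H3K4me1 was the most extensive mark of the Rag1-Rag2 window in the fetal list. Its 14 peaks covered 10.1 kb or 22.3% of the window, with widths of 261 to 2811 bp and a median of 517 bp against 429 bp over the list. The first 12 formed a cluster over 12.0 kb, from 101456390 to 101468385, followed by a gap of 21.3 kb and 2 further peaks. The widest, from 101460652 to 101463462, had the best score, outscoring 98.1% of 92784 fetal H3K4me1 peaks, and lay wholly inside the wide H3K27ac peak. That H3K27ac peak had H3K4me1 over 4650 of its 5503 bp. The cluster also ran past the left edge of the H3K27ac peak, where 4 of its peaks overlapped none of the other marks.

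**Figure D3:**
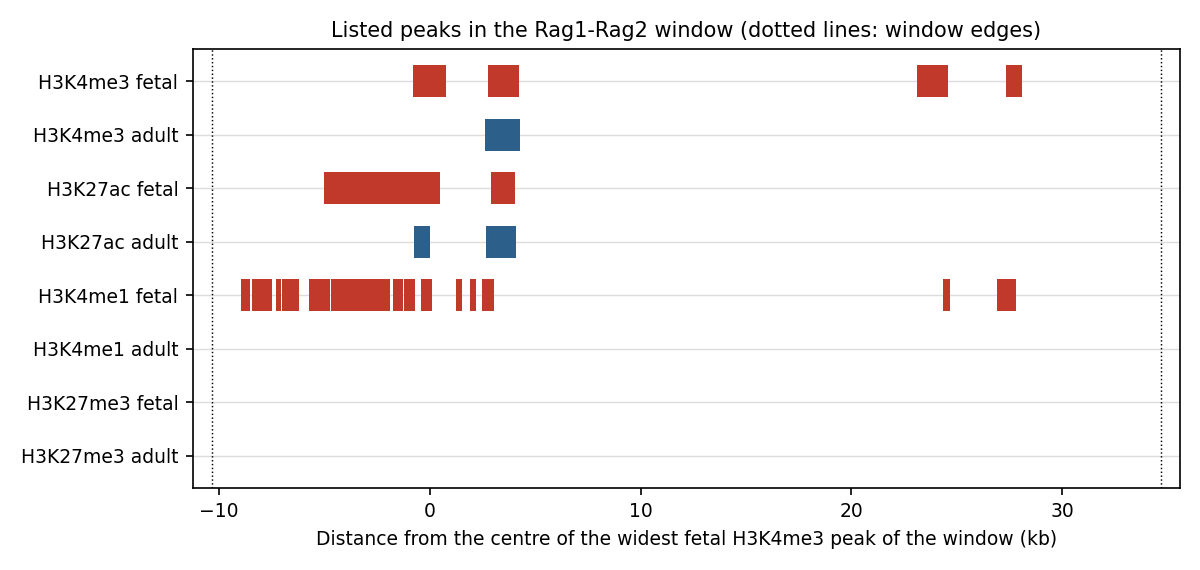
Peaks of the 8 lists in the Rag1-Rag2 window, by distance in kb from the centre of the widest fetal H3K4me3 peak; bars are peaks drawn to scale, red for fetal and blue for adult. The adult H3K4me3 bar of 1662 bp matches the second fetal bar, the fetal H3K27ac bar of 5503 bp contains an adult bar of 741 bp, and H3K4me1 has fetal bars only.

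Outside the window, H3K4me3 and H3K27ac were alike on the right side. The next H3K4me3 peak to the right, 18.0 kb away at both stages, was 1945 bp wide in the fetus and 2054 bp in the adult, and carried H3K27ac at both. The next H3K4me1 peak on that side was 19.7 kb away in the fetal and 97.2 kb away in the adult list, which held 12517 peaks against 92784. To the left, fetal H3K27ac had a further peak of 1810 bp at 13.3 kb from the window, which scored below the median of its list. The next adult H3K27ac peak on that side was 7176 kb from the window. The adult H3K27ac peaks inside the window were closer to this fetal peak. In 45 kb tiles, 98.5% of 58619 tiles had less fetal H3K4me3 than this window, 97.0% less fetal H3K27ac and 98.4% less fetal H3K4me1. For the adult lists, 85.6% had less H3K4me3 and 90.4% less H3K27ac. Most tiles held no peak of these marks. Among tiles with a peak, the median covered length was 2084, 2553 and 1537 bp for the 3 fetal marks, below the 5303, 6637 and 10055 bp of the window. For adult H3K4me3 that median was 2135 bp, above the window's 1662 bp, and for adult H3K27ac it was 2088 bp, close to the window's 2141 bp.

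At Pax5, H3K27me3 formed the largest structure at both stages. The fetal list had 10 H3K27me3 peaks that covered 40.1 kb of the window, and the adult list had 30 that covered 15.0 kb. The widest fetal peak ran from 44704401 to 44732035, past the right edge of the window, and was 27635 bp wide. It ranked 40 of 14823 by width and outscored 90.7% of the list. The same stretch held 22 adult peaks with a median width of 308.5 bp, separated by gaps with a median of 223 bp, which covered 13094 bp or 47.4% of it. After adult peaks within 1 kb had been joined, 2 adult regions remained there. The adult list thus marked the same domain in pieces, and its first piece began at 44710225, to the right of the fetal edge. Narrower adult peaks were not particular to Pax5. Over the whole H3K27me3 lists the median width was 1406 bp in the fetus and 278 bp in the adult. Among 200 kb tiles with a peak of the list, the median covered length was 4675 bp for fetal and 1318 bp for adult H3K27me3.

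The widest adult H3K27me3 peak of the window, from 44723473 to 44725408, was 1936 bp wide and also had the best score, outscoring 99.3% of the adult list. A second fetal domain of 5601 bp, from 44673704 to 44679304, outscored 87.9% of the fetal list and held 4 adult peaks that covered 26.5% of it. The other 8 fetal peaks were 460 to 1864 bp wide. Of the 10 fetal peaks 6 had no adult peak, or 60.0%, against 64.5% of the whole list. Of the 30 adult peaks 2 had no fetal peak, or 6.67%, against 7.57%. Both shares were near those of the lists. By covered length, 99.1% of 13182 tiles of 200 kb had less fetal H3K27me3 than the Pax5 window and 99.2% less adult H3K27me3.

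Both domains held an H3K4me3 peak at both stages, a combination called bivalent when both marks lie on the same chromatin. The lists show only that the peaks overlap. Whether the marks lay together or in different cells of the sorted population was not tested. In the smaller domain the fetal H3K4me3 peak lay from 44676657 to 44677912 (1256 bp) and the adult one from 44676668 to 44677880 (1213 bp). In the larger domain the fetal peak lay from 44715456 to 44717966 (2511 bp) and the adult one from 44716566 to 44717615 (1050 bp). The former had nearly the same outline at both stages, and the latter was 2.39 times as wide in the fetus. All 4 were weak for their lists, outscoring 26.0% and 29.9% of the fetal and 21.4% and 17.6% of the adult H3K4me3 peaks. H3K27me3 covered the whole of both fetal peaks, 704 bp of the smaller domain's adult peak and 827 bp of the larger domain's. No H3K27ac peak touched any of the 4. Pax5 and its RefSeq neighbours Mir5120, Gm12462 and 5730488B01Rik overlap in GRCm38, so these peaks were not assigned to a start site.

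Fetal H3K4me1 accompanied the H3K4me3 peaks that lay in H3K27me3. Of the 11 fetal H3K4me1 peaks of the Pax5 window, 9 lay in H3K27me3 and 6 overlapped H3K4me3. The widest, from 44684765 to 44686327, lay outside both marks. It was 1563 bp wide, outscored 94.5% of its list, and overlapped the only H3K27ac peak of the window, from 44685346 to 44686381 (1036 bp). That acetylated element had no H3K4me3, and lay 6.04 kb from the H3K27me3 peak on its left and 9.93 kb from that on its right. No adult H3K27ac peak lay within 82.1 kb. The H3K27ac peak outscored 18.2% of the fetal list, and 72.1% of fetal H3K27ac peaks in its score decile had no adult peak, so a fetal-only peak of this score was common. It was lost with the better-scoring peaks alone and with equal numbers of fetal and adult peaks.

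**Figure D4:**
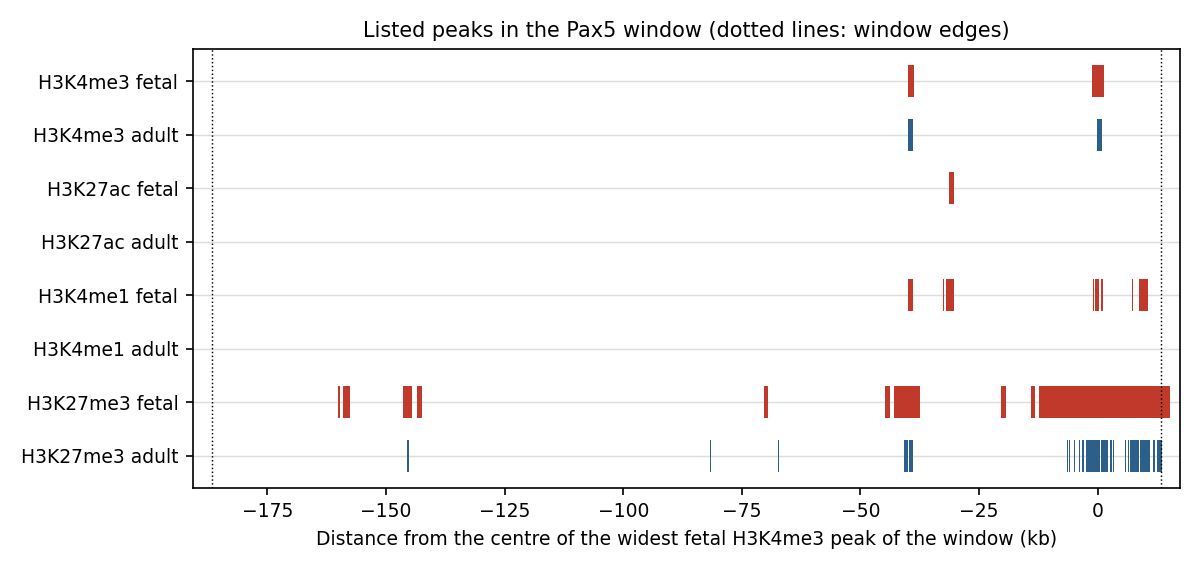
Peaks of the 8 lists in the Pax5 window, by distance in kb from the centre of the widest fetal H3K4me3 peak; bars are peaks drawn to scale, red for fetal and blue for adult. The fetal H3K27me3 bar of 27635 bp on the right coincides with 21 of the adult bars drawn, and H3K4me3 bars of both stages lie within it and within the smaller domain on its left.

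Counts over the 3 windows were set beside those of the whole lists. Of 7 fetal H3K4me3 peaks 4 had no adult peak, or 57.1%, against 9.02% of the list. However, 1 of these 4 is the peak that led to the choice of the Ighm window, so nothing is read from this contrast. The other 3 lay in the Rag1-Rag2 window, in score deciles where 8.59%, 25.9% and 53.4% of fetal H3K4me3 peaks had no adult peak. Of 5 fetal H3K27ac peaks 3 had no adult peak, or 60.0%, against 34.7%. Of these 3, 2 lay in the selected Ighm window, and 1 at Pax5 was in a score decile where 72.1% had no adult peak. Nothing is therefore read from this contrast either. None of the 30 fetal H3K4me1 peaks had an adult peak, where 90.8% of the list had none, so this count is near the background. All 3 adult H3K4me3 and both adult H3K27ac peaks had a fetal peak, and 7.22% and 11.4% of those adult lists had none. The adult H3K4me1 list had no peak in any window. That list was much shorter than the fetal one, with 12517 against 92784 peaks and a median width of 193 against 429 bp. Of the 40, 45 and 200 kb tiles, 9.48%, 10.4% and 27.6% had an adult H3K4me1 peak, so an empty window was the usual state.

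The H3K4me3 peaks differed by locus in the marks they carried. All 7 fetal peaks overlapped fetal H3K4me1, against 84.9% of the list. H3K27ac was at 3 of 7, against 74.2%, namely the Ighm peak and the left pair of peaks in the Rag1-Rag2 window. The peaks without it were weak, outscoring 6.82% to 29.9% of their list, and the share at such scores was not computed. The Ighm peak had also led to the choice of its window, so nothing is read from this contrast. H3K27me3 was at 2 of 7, against 22.3%, and both were at Pax5. The counts for H3K4me1 and H3K27me3 were near the shares of the list. Of the 3 adult peaks, 1 had H3K27ac, against 75.7%, and 2 had H3K27me3, against 12.9%. None of the 3 had H3K4me1, against 10.1%. The adult peaks with H3K27me3 and no H3K27ac were both at Pax5 and outscored only 21.4% and 17.6% of their list. No H3K4me3 peak of the windows had both H3K27ac and H3K27me3 at the same stage.

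**Figure D5:**
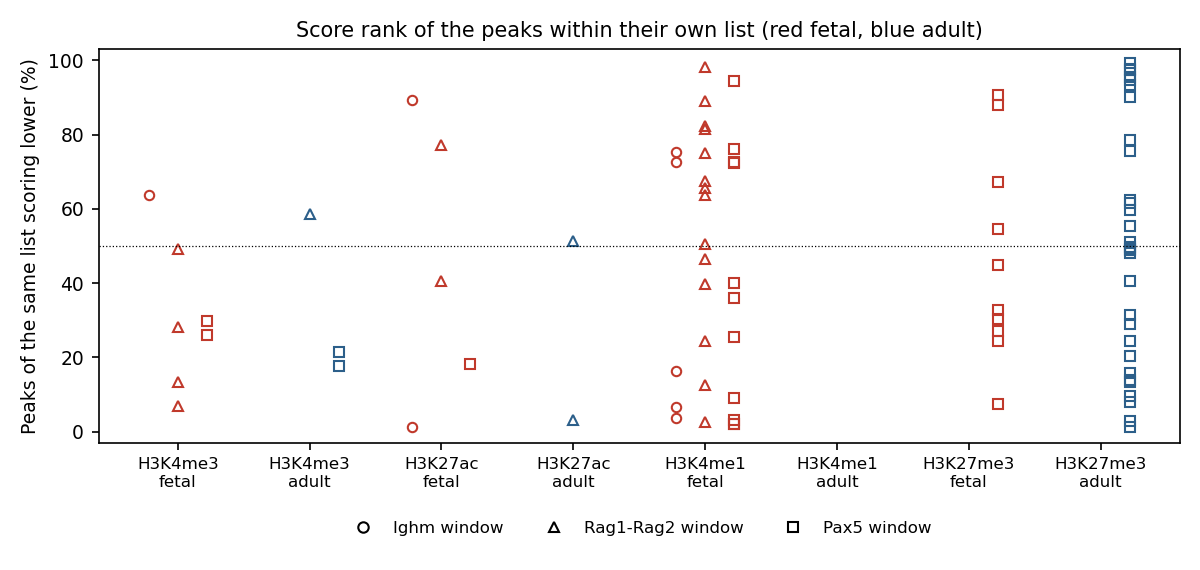
Score rank of each of the 87 peaks within its own list, as the percent of that list scoring lower; circles are the Ighm, triangles the Rag1-Rag2 and squares the Pax5 window, and the dotted line marks the list median. Of the 7 fetal H3K4me3 peaks only that of Ighm lies above the line, at 63.8%, and the adult H3K4me1 column is empty.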

How the data were processed

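Peaks of H3K4me3, H3K27ac, H3K4me1 and H3K27me3 in fetal and adult HSCs were taken from the 8 deposited lists. Reads had been aligned with Bowtie2 2.2.2 to mm9, per the submitters' processing notes. Peaks were called with a MACS program, as their deposited names show; its version and settings and the control are not given in the sources used here. The deposited peak score has no stated unit, was at least 50 in every list, and was used only for ranks within a list. Lists are titled as combined, so each was taken as 1 call on pooled replicates. Depth is unknown, and the 4 inputs were not used here.

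Overlap meant at least 1 bp, and lengths were cut at the window edges. Background values cover whole lists and tiles laid from the start of each chromosome to its last listed peak. A score decile is 1 of 10 equal groups of a list ordered by score. Named single peaks were all H3K4me3 peaks and the widest and best-scoring peak of every other list in each window; other single peaks named were chosen after their values were seen, as were the score deciles. The members and lists were chosen with earlier results of these data known. Planned lists of other lymphoid and marker genes were not used, because no annotation of mm9 was used. In simulated lists the overlap code recovered 1500 of 1500 planted overlaps. Python 3.11.15 and matplotlib 3.10.9 were used. Alternatives kept better-scoring peaks, took equal numbers of peaks, merged peaks, widened windows or changed the overlap.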

Additional observations from a re-analysis of the deposited data

How the results depend on the processing

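No paired analysis was possible because the 2 replicates of a group were combined before peaks were listed, which also prevents leaving one out. Differences are fetal minus adult covered length, a value was taken as moved when it changed by more than 1.5 times, and of 113 alternative values 79 did not. Some of these 79 were 0 in the main setting and stayed 0, as for H3K27me3 at Ighm and Rag1-Rag2 and for the number of adult H3K4me1 peaks. Filtering or merging cannot add peaks where none is listed, so these values do not speak for stability. The sign changed once. With only peaks at or above the median score of their list, the difference for H3K4me3 at Rag1-Rag2 was -1662 bp in place of 3641 bp, because all 4 fetal peaks scored below the median of their list and the adult peak above that of its own. The same setting gave 1195 bp for H3K4me1 at Ighm and 0 bp for H3K4me3 and H3K27ac at Pax5. It left 1 fetal and 1 adult H3K4me3 peak, 2 fetal and 1 adult H3K27ac peak, 15 fetal H3K4me1 peaks, and 4 fetal and 14 adult H3K27me3 peaks over the 3 windows. No H3K4me3 or H3K27ac peak was then shared (0 at either stage), while 2 fetal and 14 adult H3K27me3 peaks were, and fetal H3K4me3 peaks had H3K27ac in 1, H3K4me1 in 1 and H3K27me3 in 0 cases, adult ones H3K27me3 in 0. With equal numbers of top-scoring peaks from both stages, H3K4me1 differences were 0 bp at Ighm, 3821 bp at Rag1-Rag2 and 1563 bp at Pax5, that of H3K27ac at Pax5 was 0 bp, and 3 fetal H3K27ac, 3 fetal H3K4me1 and 19 adult H3K27me3 peaks were left. These falls follow from fewer peaks entering. With peaks merged within 1 kb, H3K4me1 at Ighm differed by 4721 bp, and 10 fetal H3K4me1 and 7 adult H3K27me3 peaks were counted, since merging joins pieces. With 50% of the peak covered, 1 fetal H3K27ac and 0 fetal H3K27me3 peaks were shared, and 3 fetal H3K4me3 peaks had H3K4me1, as narrow peaks cannot cover wide ones. Under the 4 settings run for them, the differences of H3K27ac at Rag1-Rag2 and of H3K27me3 at Pax5 did not move. Those of H3K4me3 and H3K27ac at Ighm did not move either, but that window was selected for a wide fetal and no adult H3K4me3 peak. Filtering or merging could not add an adult peak there, so nothing is read from the unmoved Ighm values. Widening the windows by 20 kb, or counting a peak within 1 kb as shared, moved no value. A weak mark below the lists' lowest score of 50 would not be seen in these lists.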
